A study of Mus musculus with 14 samples.

Results

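The 10 genes described here encode heparan sulfate proteoglycans of the kidney and proteins of the basement membrane that bind them: Vwa1, Gpc5, Gpc1, Gpc3, Gpc4, Gpc6, Hspg2, Agrn, Nid1 and Sdc1. They make up 10 of 56980 deposited gene IDs and were matched by symbol through the GENCODE mouse annotation. They were selected on results of these same libraries, Vwa1 and Gpc5 for the size of their differences between groups, so that the differences of all 10 between groups are given as description. No p is printed for any of them, and where tests that include them are counted, the counts support nothing. All 10 passed the filter on low counts, a total above 10 counts over all libraries.

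RNA from whole kidneys was sequenced for 14 female mice of the outbred CD-1 stock, wild type by genotype, at 18 weeks of age, 1 library per mouse. Term mice without diabetes (T-ND, n = 4) and with diabetes (T-D, n = 4) were born naturally and stayed with their own mothers, while preterm mice without diabetes (PT-ND, n = 3) and with diabetes (PT-D, n = 3) were delivered early by Caesarean section and raised by foster mothers that received acepromazine. Diabetes was induced with low doses of streptozotocin (STZ), which destroys insulin-producing beta cells, and the mice labelled as untreated received none. Early birth, surgery, fostering and acepromazine therefore cannot be told apart, nor can STZ itself and the hyperglycaemia it causes. Of the females of the study, another round of STZ was given to some in PT-D and, as the paper states, to none in T-D. Which of the PT-D libraries come from them is not given in the sources used here.

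Heparan sulfate proteoglycans are core proteins that carry long sulfated sugar chains, which bind growth factors, enzymes and other matrix proteins. Glypicans are held on the outer cell surface by a lipid anchor, syndecans cross the membrane, and perlecan (Hspg2) and agrin (Agrn) are secreted into basement membranes, agrin being prominent in that of the glomerulus. Nidogen-1 (Nid1) carries no such chain and links laminin to collagen IV and perlecan, and Vwa1, a small protein with a von Willebrand factor A domain that is best known from cartilage and from basement membranes of nerve and muscle, binds perlecan and collagen VI.

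The genes lie on 6 chromosomes of GRCm39, and 3 pairs are near each other. Vwa1 (ENSMUSG00000042116, chromosome 4 from 155852606 to 155859155, minus strand) is 390.6 kb from Agrn (chromosome 4 from 156249740 to 156282014, minus strand). Gpc5 (ENSMUSG00000022112, chromosome 14 from 115329647 to 116762591, plus strand) spans 1432.9 kb and is followed after 400.1 kb by Gpc6. Gpc3 and Gpc4 stand 107.0 kb apart on chromosome X. Exons of Gpc1 share 1600 bases, 16.4% of its exon length, with Ankmy1 on the opposite strand, and the counting left out reads that fell on more than 1 gene.

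The upstream sequences of Gpc5 and of the basement membrane pair Hspg2 and Agrn are printed because Gpc5 had its lowest mean in PT-D and Hspg2 and Agrn had their highest mean there. They are the 150 bases before the transcription start in the RefSeq promoter table, which uses GRCm38.p6 while the counts use GRCm39, written 5′ to 3′ on the strand of the gene. Capitals mark the GC box, GGGCGG or its reverse complement CCGCCC, to which factors of the Sp family can bind. The stretch of Gpc5 is chr14:115092065-115092214 (plus strand), that of Hspg2 is chr4:137468653-137468802 (plus strand) and that of Agrn is chr4:156197489-156197638 (minus strand).
Gpc5: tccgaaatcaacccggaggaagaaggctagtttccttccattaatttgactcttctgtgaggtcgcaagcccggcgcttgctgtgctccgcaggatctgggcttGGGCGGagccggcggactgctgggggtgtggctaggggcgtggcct
Hspg2: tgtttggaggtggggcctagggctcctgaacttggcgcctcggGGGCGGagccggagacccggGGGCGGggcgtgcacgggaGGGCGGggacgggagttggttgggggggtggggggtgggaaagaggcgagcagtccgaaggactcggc
Agrn: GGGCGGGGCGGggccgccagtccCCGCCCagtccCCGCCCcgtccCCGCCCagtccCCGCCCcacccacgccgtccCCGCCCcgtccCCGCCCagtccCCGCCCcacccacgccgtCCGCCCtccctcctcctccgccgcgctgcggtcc

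These stretches held 1 GC box in Gpc5, 3 in Hspg2 and 10 in Agrn, overlapping matches included. Over the 250 upstream bases, all 8 entries that the table has for 7 of the 10 genes held a GC box on either strand, against 32.7% of all 32851 entries. The TATA box TATAAA was found in 1 of the 8 entries, that of Gpc5, against 12.4% of all entries, and the E-box CACGTG in 0 of the 8 against 6.02%. The GC content of the 250 bases was 51.2% in Gpc5, 70% in Hspg2 and 83.6% in the entry of Agrn shown, with a median of 52.4% over the table. Agrn has another entry, at another start, with a GC content of 60.8% and 2 GC boxes in the 250 bases against 12 in the entry shown. Vwa1, Gpc1 and Gpc6 have no entry there.

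The counts on genes lay between 16697246 and 28673176 per library. The library names in the labels carry a suffix, a, in 5 libraries (replicates 1 and 2 of T-ND, replicate 1 of T-D and of PT-D, and replicate 2 of PT-ND), whose meaning the labels do not give. Kidney markers were present in every library, with 113627 to 174181 summed normalized counts for 6 proximal tubule genes. Of 4 cartilage markers, Acan, Col2a1 and Matn1 stayed at 11 counts or fewer in every library, and Sox9, which is not particular to cartilage, had 1 to 54 counts. The 4 summed to 3.56 to 38.8 normalized counts in T-ND, 24.5 to 57.8 in T-D, 15.6 to 23.1 in PT-ND and 28.8 to 41.4 in PT-D. The summed level of 6 podocyte markers was 5166 to 7877 normalized counts in T-ND, 3574 to 10813 in T-D, 6023 to 10725 in PT-ND and 10549 to 13789 in PT-D. By staining of tissue, the paper found the podocyte density of PT-D females not different from T-ND or T-D. It reports a lower density in PT-D than in PT-ND. Summed markers of urothelium (5 genes) were 467 to 1088 in T-ND, 605 to 1216 in T-D, 99.1 to 846 in PT-ND and 52.0 to 426 in PT-D. In whole-kidney RNA, fewer cells of a type and less RNA per cell cannot be told apart.

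Vwa1 had its lowest level in PT-D, in every library of that group, and its highest in PT-ND. Its normalized counts were 1593, 1363, 1643 and 1881 in the T-ND libraries and 739, 447, 1215 and 1480.2 in the T-D libraries. They were 2923, 2816 and 2572 in PT-ND and 246, 361 and 289 in PT-D. PT-D overlapped with no other group and PT-ND with none either, while the T-D libraries were spread from the edge of PT-D into the range of T-ND.

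The mean of Vwa1 was 1619.9 ± 213 normalized counts in T-ND (SD, n = 4), 970.4 ± 464 in T-D (n = 4), 2770.2 ± 180 in PT-ND (n = 3) and 299 ± 58.1 in PT-D (n = 3). The PT-D mean was 9.27 times lower than that of PT-ND, a log2 fold change of −3.21 (SE 0.18). Against T-ND the log2 fold change of PT-D was −2.45 (SE 0.17), a mean 5.42 times lower. Against T-D it was −1.71, a mean 3.25 times lower. T-D differed from T-ND by −0.76 (SE 0.30) on the log2 scale, and PT-ND from T-ND by 0.77 (SE 0.14). The difference between the effect of STZ in preterm and in term mice was −2.47 (SE 0.41) on the log2 scale. In the libraries without the name suffix, Vwa1 had log2 fold changes of −3.08 for PT-D against PT-ND and −2.45 for PT-D against T-ND, and a difference of effects of −2.33.

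Gpc5, a glypican whose human gene has been associated with nephrotic syndrome, was high in PT-ND and in 1 T-ND library, and low elsewhere. The PT-ND libraries had 299, 409 and 379.6 normalized counts. In T-ND they were 234, 53.9, 35.6 and 32.2, in T-D 27.2, 17.1, 19.8 and 29.6, and in PT-D 26.4, 7.52 and 23.2. PT-ND stood above every other library, and the T-D libraries all stood below those of T-ND, 29.6 at most against 32.2 at least.

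The mean of Gpc5 in PT-ND, 363 ± 56.9 normalized counts (SD, n = 3), was 19.04 times that in PT-D, 19.1 ± 10.1 (n = 3). The log2 fold change was −4.26 (SE 0.39). PT-D and T-D overlapped and differed by −0.30 (SE 0.51) on the log2 scale. T-ND replicate 1 changed the size, but not the direction, of the log2 fold changes that use T-ND. With it, PT-ND differed from T-ND by 2.04 (SE 0.58) on the log2 scale and PT-D from T-ND by −2.22 (SE 0.78), and without it by 3.15 and −1.11. T-D against T-ND likewise changed from −1.93 to −0.81 without that library. Raw counts of Gpc5 ran from 10 to 362 over the libraries, so that the lowest values carry the largest counting error.

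**Figure D1:**
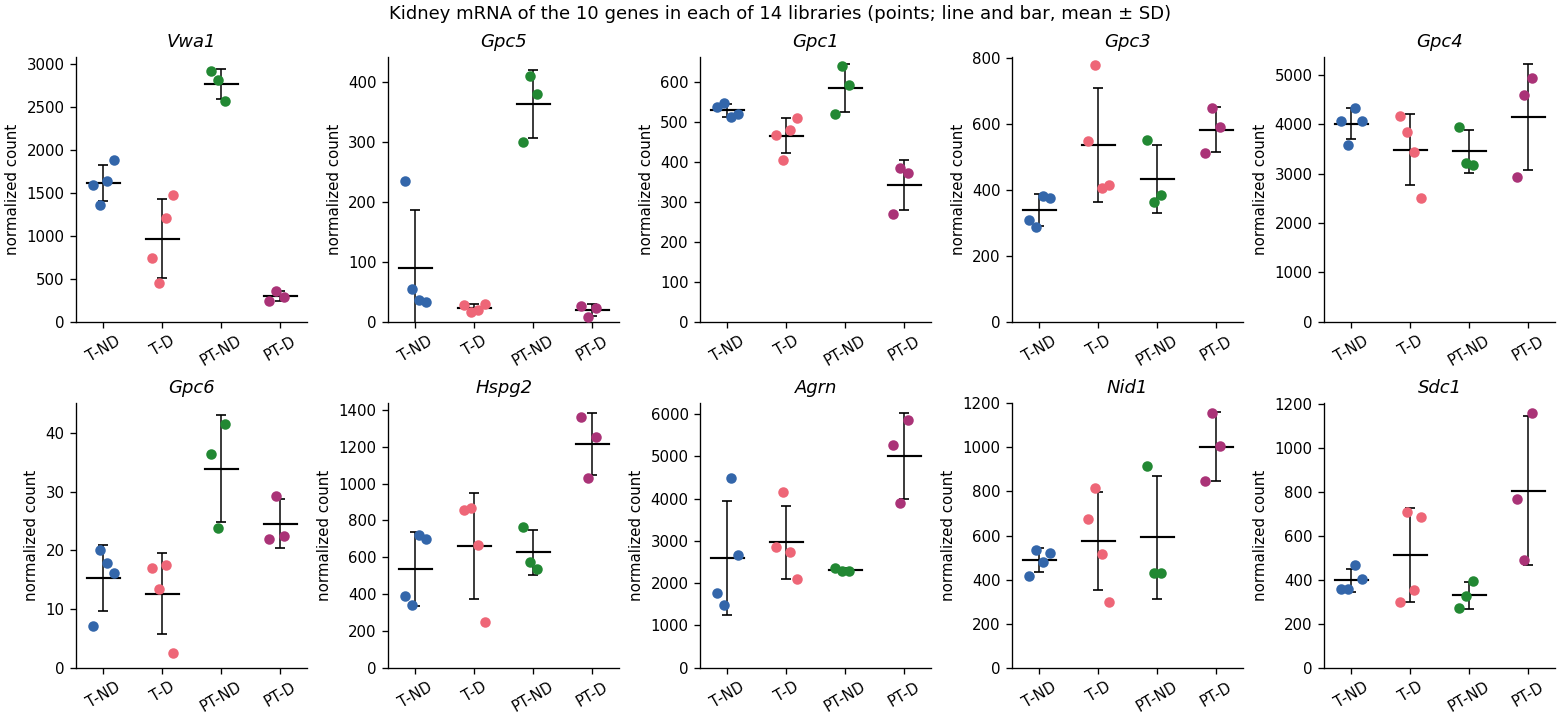
Normalized count (y axis, linear from 0) of each of the 10 genes in the 14 libraries, by group (x axis: T-ND, T-D, PT-ND, PT-D), with 1 point per library and the mean ± SD in black. The 3 PT-D libraries are the lowest for Vwa1 (246 to 361) and Gpc1 (271 to 384) and the highest for Hspg2 (1032 to 1360), and PT-ND is the highest for Gpc5 (299 to 409).

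Gpc1, a glypican found on most cells, followed the order of Vwa1 within a narrower range. Its normalized counts were 538, 547, 512 and 520.3 in T-ND, 467, 406, 479 and 511.0 in T-D, 520.5, 639 and 593 in PT-ND, and 271, 384 and 372 in PT-D. The PT-D libraries lay below all others, and the means ran from 342 ± 62 (SD, n = 3) in PT-D to 584 ± 59.8 (n = 3) in PT-ND. The log2 fold change of PT-D was −0.77 (SE 0.18) against PT-ND and −0.64 (SE 0.14) against T-ND, both inside the limit of 1 set for a call.

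Gpc3, a glypican of embryonic growth control whose loss causes an overgrowth syndrome, lay at 288 to 383 normalized counts in T-ND, 406 to 780 in T-D, 365 to 554 in PT-ND and 512 to 650.0 in PT-D. Both diabetic groups stood above T-ND without overlap, with log2 fold changes of 0.64 (SE 0.22) in T-D and 0.78 (SE 0.15) in PT-D. PT-D and PT-ND overlapped.

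Gpc4, a glypican that modulates growth factor signalling, had the highest count of the glypicans and the least difference between groups. Its libraries ran from 3568 to 4318 normalized counts in T-ND, 2497 to 4163 in T-D, 3172 to 3946 in PT-ND and 2920.4 to 4926 in PT-D, so that all 4 groups overlapped. The log2 fold changes in the pairs of groups lay between −0.22 and 0.27.

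Gpc6, the neighbour of Gpc5, was near the detection limit. It had 6, 22, 17 and 15 counts in T-ND, 15, 11, 23 and 2 in T-D, 35, 21 and 36 in PT-ND, and 24, 39 and 28 in PT-D. The 2 counts of T-D replicate 4 are under the 3 counts taken as the floor. Both preterm groups lay above both term groups in normalized counts, with 21.9 to 41.5 against 2.57 to 20.1, and PT-ND differed from T-ND by 1.13 (SE 0.44) on the log2 scale.

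Hspg2, Agrn and Nid1, the perlecan, agrin and nidogen-1 of basement membranes, were highest on average in PT-D. Hspg2 had 390, 340, 721 and 699.8 normalized counts in T-ND, 858, 868, 668 and 248 in T-D, 767, 577 and 537 in PT-ND, and 1359.9, 1032 and 1252 in PT-D. No PT-D library overlapped with another group. The mean was 537 ± 201 (SD, n = 4 T-ND mice) against 1214.5 ± 167 (n = 3 PT-D mice). This is a log2 fold change of 1.17 (SE 0.26), and PT-D differed from PT-ND by 0.95 (SE 0.18).

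Agrn had 1759.7, 1492 and 2677 normalized counts in T-ND replicates 1, 2 and 4 and 4477 in replicate 3. It had 2867, 4151, 2727 and 2111 in T-D, 2359, 2287 and 2299.5 in PT-ND, and 5272, 3886 and 5863 in PT-D. PT-D and PT-ND did not overlap, with a log2 fold change of 1.11 (SE 0.17), but T-ND replicate 3 and T-D replicate 2 reached into the range of PT-D. The log2 fold change of PT-D against T-ND was 0.94 (SE 0.34), and 1.33 without T-ND replicate 3.

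Nid1 had 415, 533, 482 and 521 normalized counts in T-ND, 675, 818, 517 and 299 in T-D, 916, 431 and 429 in PT-ND, and 848, 1158 and 1005 in PT-D. PT-D lay above both term groups, and differed from T-ND by 1.03 (SE 0.14) on the log2 scale. PT-ND replicate 1 stood within the range of PT-D, and the log2 fold change against PT-ND was 0.76 (SE 0.27) with it and 1.21 without it. Against T-D, the log2 fold change of PT-D was 0.87 for Hspg2, 0.75 for Agrn and 0.79 for Nid1.

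Other measures moved with these 3 genes. In each library they were set against the summed podocyte markers. Per 1000 counts of the marker sum, T-ND libraries then held 82.5 ± 14.9 counts of Hspg2 (SD, n = 4) and PT-D libraries 99.0 ± 19.5 (n = 3). For Agrn the ratio was 392 ± 122 in T-ND and 413 ± 131 in PT-D, and for Nid1 79.2 ± 17.7 and 82.0 ± 18.0. On that scale the PT-D and T-ND ranges overlapped for all 3. Against 6 endothelial markers, whose sum was 5306 to 5357 for T-ND libraries and 6610 to 7718 for those of PT-D, Hspg2 had 101 ± 37.2 per 1000 in T-ND against 168 ± 26.6 in PT-D, without overlap. Nid1 did not overlap on that scale either (77.8 to 101 and 110 to 155), while Agrn did (281 to 837 in T-ND and 520 to 887 in PT-D). Summed markers of mesangium and smooth muscle were 2812 to 4188 in T-ND and 4783 to 6945 in PT-D, with Tagln, a smooth muscle gene, at 11 counts or fewer in every library. Leukocyte markers summed to 382 to 721 and 1069 to 2154. The log2 fold change in PT-D vs T-ND was above 0 for 6 of 6 podocyte and 5 of 6 endothelial genes. It was above 0 for 4 of 6 genes of mesangium and smooth muscle and 6 of 6 leukocyte genes. Ren1, the renin gene, had 960 to 4847 counts in the libraries, the highest count of its list. S100a8 reached 1840 counts, while Cd3e and Cd79a stayed at 25 and 18 or fewer. The part of these cell types in the differences was not tested.

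**Figure D2:**
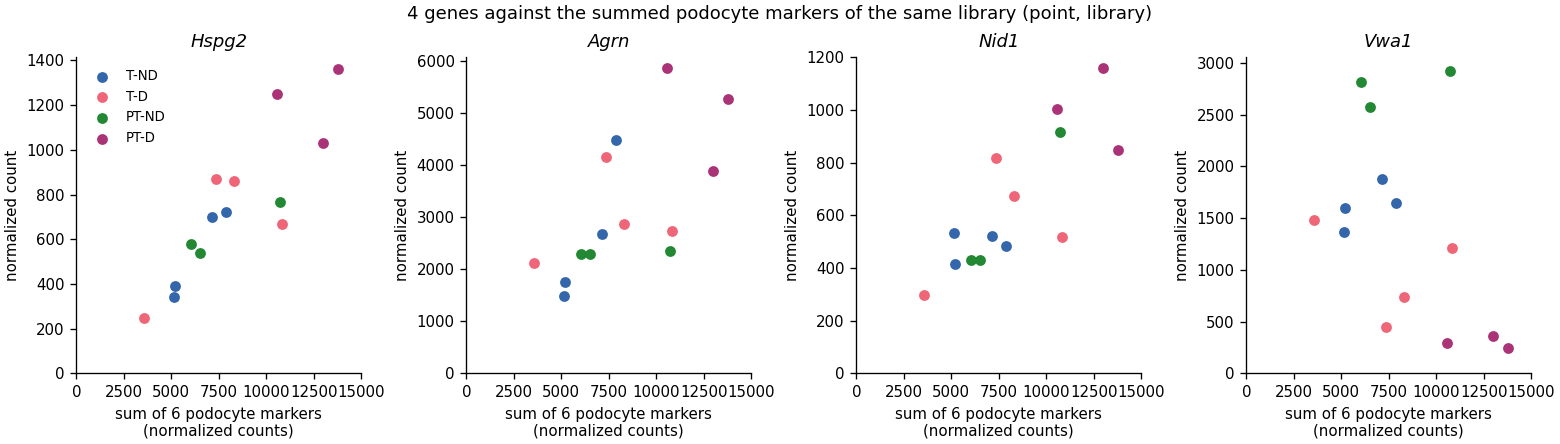
Normalized count of Hspg2, Agrn, Nid1 and Vwa1 (y axes, linear from 0) against the sum of 6 podocyte markers in the same library (x axis, normalized counts), with 1 point per library coloured by group. The PT-D points lie at 10549 to 13789 on the x axis and are high for the first 3 genes and low for Vwa1, and T-D replicate 4 is at the lower left for Hspg2 and Nid1.

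The library-name suffix moved with Hspg2 and Agrn within T-ND. T-ND replicates 1 and 2, which carry it, averaged 365 normalized counts of Hspg2 and 1626 of Agrn, and replicates 3 and 4 averaged 710.2 and 3577. In PT-ND the suffix library was lower than the mean of the others for Hspg2 (577 against 652) and Agrn (2287 against 2329). In T-D it was higher for Hspg2 (858 against 595) and lower for Agrn (2867 against 2996). In PT-D it was higher for Hspg2 (1360 against 1142) and Agrn (5272 against 4875). The libraries without the suffix were 2 of T-ND and 2 of PT-D. Among these, the log2 fold change of PT-D against T-ND was 0.67 for Hspg2, 0.43 for Agrn and 1.09 for Nid1. With the suffix as a covariate over all libraries of that pair, it was 1.18 for Hspg2, 0.96 for Agrn and 0.99 for Nid1, which fell under the limit of 1 set for a call.

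Sdc1, the syndecan of epithelia and plasma cells, had 360.0, 359, 467 and 406 normalized counts in T-ND, 300.1, 709, 357 and 686 in T-D, 271, 328 and 393 in PT-ND, and 771, 489 and 1162 in PT-D. The PT-D libraries lay above both groups without diabetes and overlapped with T-D, whose 4 libraries split into a low and a high pair. The log2 fold change of PT-D was 1.29 (SE 0.28) against PT-ND and 1.01 (SE 0.25) against T-ND. PT-D replicate 3 alone moved the first to 0.93 when it was left out. The log2 fold change against T-ND ran from 0.66 to 1.27 over the libraries left out.

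A gene was called when the quasi-likelihood test of edgeR gave an adjusted p under 0.05 and the log2 fold change lay beyond 1 in either direction. By that rule 3 of the 10 genes were called in PT-D vs T-ND (Vwa1 lower, Hspg2 and Nid1 higher), where 1.45% of all tested genes were. In PT-D vs PT-ND 4 were called (Vwa1 and Gpc5 lower, Agrn and Sdc1 higher), against 4.95% of all genes. In the test of whether the STZ effect differed between preterm and term mice it was 1 (Vwa1), against 4.45%. None were called in PT-D vs T-D, T-D vs T-ND or PT-ND vs T-ND, with 0.193%, 0.0673% and 0.0809% of all genes called. In those 3 pairs 5, 3 and 3 of the 10 genes had an unadjusted p under 0.05 in edgeR. Over all genes tested that held for 4971 of 22294, 2621 of 22275 and 2379 of 22254. DESeq2, the tool the paper used, called 1 (Vwa1), 1 (Gpc5) and 0 of the 10, and 661, 293 and 164 of all genes. Since the genes were chosen by these results, nothing is read from the shares.

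Groups without overlapping libraries were seen for 8 of the 10 genes in PT-D vs T-ND, where 23.2% of all genes had them. The counts were 5 in PT-D vs T-D (23% of all genes), 3 in T-D vs T-ND (6.66%), 6 in PT-D vs PT-ND (34.4%) and 3 in PT-ND vs T-ND (11%). Leaving out 1 library changed several of the calls. The call of Hspg2 in PT-D vs T-ND was lost without any one of T-ND replicates 1, 2 and 4 and PT-D replicates 1, 2 and 3, with log2 fold changes of 1.00 to 1.33. That of Nid1 was lost without T-ND replicate 1 or 4 or PT-D replicate 2 or 3 (0.92 to 1.07). Agrn in PT-D vs PT-ND was lost without PT-D replicate 3 (0.98), and Sdc1 without that library or PT-ND replicate 2 (0.93 and 1.27). With the name suffix as a covariate, Nid1 was not called in PT-D vs T-ND and Gpc5 was called in the interaction. The interaction call of Vwa1 was not made among the libraries without the name suffix.

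**Figure D3:**
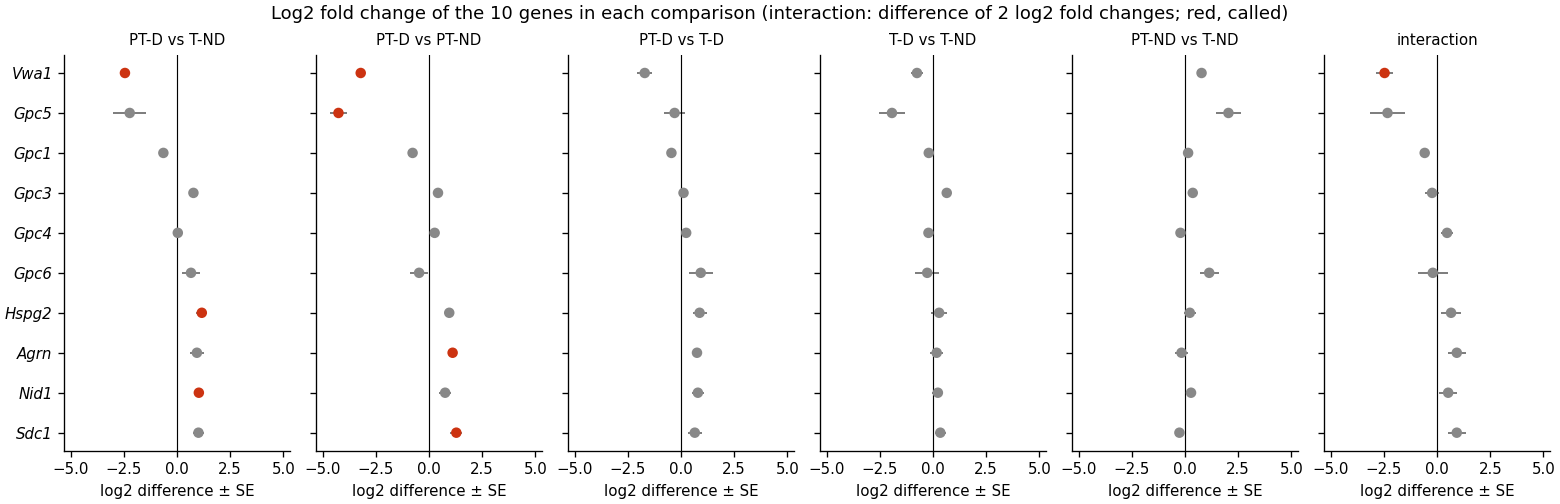
Log2 fold change with its SE (x axis) of the 10 genes (y axis) in the 5 pairs of groups, and the difference of 2 log2 fold changes in the interaction panel, red where called. Vwa1 is at −2.45 in PT-D vs T-ND and −3.21 in PT-D vs PT-ND, Gpc5 at −4.26 in PT-D vs PT-ND, and no gene is red in PT-D vs T-D, T-D vs T-ND or PT-ND vs T-ND.

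Levels of different genes were compared per kb of exon. In T-ND the order was Gpc4 (738 ± 58 normalized counts per kb), Vwa1 (416 ± 54.7), Agrn (271 ± 140), Gpc3 (113 ± 16.1), Sdc1 (95.3 ± 12.2), Nid1 (65.1 ± 7.13), Gpc1 (54.4 ± 1.64), Hspg2 (33.7 ± 12.6), Gpc5 (18.8 ± 20.5) and Gpc6 (1.62 ± 0.60), each with SD over 4 libraries. Neighbours overlapped in 4 of the 9 steps of that order: Vwa1 with Agrn, Gpc3 with Sdc1, Nid1 with Gpc1, and Hspg2 with Gpc5. Vwa1 moved most in rank. It was the first in PT-ND (712 ± 46.2 per kb), overlapping with Gpc4 (635 ± 79.9), the third in T-D, and the sixth in PT-D (76.8 ± 14.9), beside Hspg2 (76.2 ± 10.5). Gpc5 was the seventh in PT-ND (76.6 ± 12), where it overlapped with Nid1 and Gpc1, and the ninth in the other groups.

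**Figure D4:**
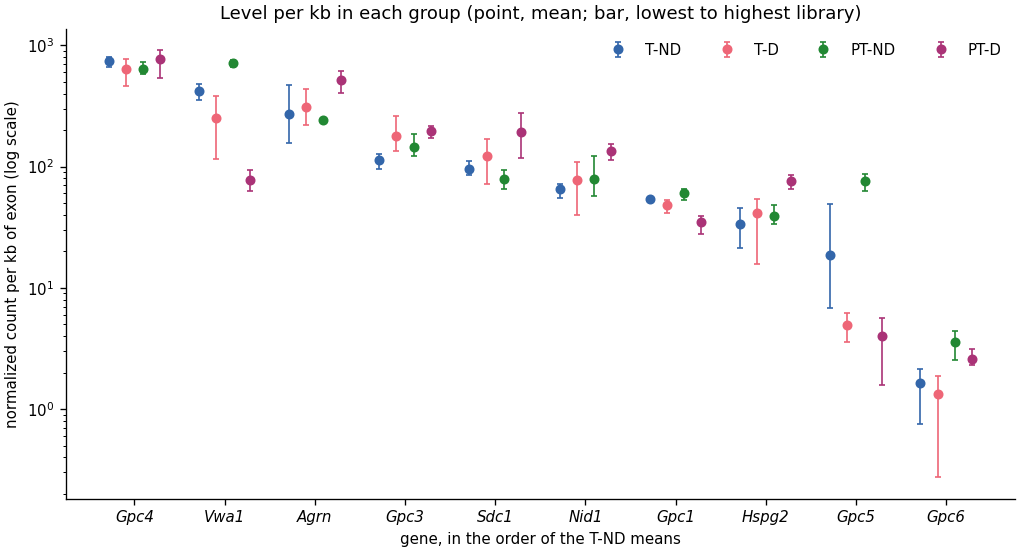
Normalized count per kb of exon (y axis, log scale) of the 10 genes, in the order of their T-ND means (x axis), with a point for the mean of each group and a bar from its lowest to its highest library. Vwa1 spans 76.8 in PT-D to 712 in PT-ND and Gpc5 4.03 to 76.6, while Gpc4 stays between 635 and 764.

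Genes with a pattern like that of Vwa1 and Gpc5 were sought among the 12168 genes whose mean reached 50 normalized counts. Among the 5 with the highest Pearson r to Vwa1 over the 14 libraries were Fpgs (0.93), Gstm7 (0.92), Gpc1 (0.92) and Haao (0.92). For Gpc5 the 5 were Gjb1 (0.87), Fcgr2b (0.86), Glb1l (0.86), Tmem178 (0.85) and Gm14410 (0.84). Once the group means were taken out, r fell to 0.57 to 0.69 for those named for Vwa1 (0.56 for Gpc1) and to 0.35 to 0.65 for those of Gpc5. Vwa1 and Gpc5 had an r of 0.75 with each other, and −0.05 without the group means. Hspg2 and Agrn had an r of 0.85 (0.76 without the group means), Hspg2 and Nid1 0.84 (0.69), and Gpc3 and Nid1 0.77 (0.80). All values of a point come from 1 library, and such r values describe these 14 libraries only.

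The enzymes and other proteins that make, carry and trim heparan sulfate were examined in 5 lists with 52 genes, of which 47 had enough counts. In PT-D vs T-ND the test passed for 2 of the 47, both higher, with 1.45% of all genes called. These were Sulf1 and Sulf2, the extracellular sulfatases that remove 6-O-sulfates from finished chains. The median log2 fold change of the 47 was −0.05, beside 0.03 over all genes tested. In PT-D vs PT-ND it passed for 4 of 47, with 4.95% of all genes called and a median of −0.01 beside 0.05, namely Extl1, Sulf1 and Sulf2, which rose, and Arsg, which fell. It passed for 0 of 47 in PT-D vs T-D, T-D vs T-ND and PT-ND vs T-ND. There 11, 13 and 6 of the 47 had an unadjusted p under 0.05 in edgeR, and DESeq2 called 2, 0 and 0. Over all genes, 4971 of 22294, 2621 of 22275 and 2379 of 22254 had such a p, and DESeq2 called 661, 293 and 164. For the interaction it passed for 3 of 47 (Hs3st3b1, Slc35b2 and Arsg), with 4.45% of all genes called, a share near that of the list.

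Sulf1 had 38, 29.2, 75.4 and 68.8 normalized counts in T-ND, 41.9 to 99.8 in T-D, 96.0, 32.8 and 45.0 in PT-ND, and 157, 178 and 174 in PT-D. PT-D stood above every other library. The log2 fold change was 1.67 (SE 0.32, adjusted p = 0.0337 in edgeR) against T-ND and 1.54 (SE 0.37, adjusted p = 0.0228 in edgeR) against PT-ND. The first was lost without T-ND replicate 1, 2 or 4 or any PT-D replicate (1.47 to 1.83), and the second without PT-ND replicate 2 or 3 or PT-D replicate 3 (1.26 to 1.53).

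Sulf2 had 352, 265, 504 and 435 normalized counts in T-ND, 644, 868, 719 and 743 in T-D, 494, 428 and 359 in PT-ND, and 843, 1096 and 848 in PT-D. Both diabetic groups stood above both groups without diabetes. By edgeR the log2 fold change was 1.25 in PT-D vs T-ND (SE 0.21, adjusted p = 0.0249), 1.12 in PT-D vs PT-ND (SE 0.18, adjusted p = 0.00542) and 0.92 in T-D vs T-ND (SE 0.20, adjusted p = 0.122). The first was lost without T-ND replicate 1 or 4 or PT-D replicate 2 or 3 (1.11 to 1.31), and the second without PT-D replicate 2 (0.99, under the limit of 1). The difference of the STZ effects on Sulf2 was 0.19 (SE 0.28, adjusted p = 0.734 by edgeR).

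Arsg, a lysosomal sulfatase that acts on heparan sulfate during its breakdown, had 411, 378 and 459 normalized counts in PT-ND and 79.3, 159 and 178 in PT-D. It fell by 1.58 on the log2 scale (SE 0.27, adjusted p = 0.00744 in edgeR). T-ND reached from 150 to 383 and T-D from 290 to 425. The difference of the STZ effects was −1.96 (SE 0.42, adjusted p = 0.0248 in edgeR), which was lost without PT-ND replicate 3 (−1.88) or PT-D replicate 3 (−2.16). Extl1, an exostosin-like glycosyltransferase, rose from 52.2 to 60.0 normalized counts in PT-ND to 85.7 to 136 in PT-D, by 1.05 (SE 0.29, adjusted p = 0.0408 in edgeR), and its call was lost without any one of the PT-ND replicates or PT-D replicates 2 and 3 (0.93 to 1.09).

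Slc35b2, which carries the sulfate donor PAPS into the Golgi, had 604, 664 and 663 normalized counts in PT-D and 893 to 1686 in the other libraries. Its log2 fold change of −0.95 in PT-D vs PT-ND and −0.88 in PT-D vs T-ND stayed inside the limit of 1, and the difference of the STZ effects was −1.02 (SE 0.29, adjusted p = 0.0481 by edgeR), a call lost without any one of 11 of the 14 libraries. Hs3st3b1, a 3-O-sulfotransferase, had 123 to 184 normalized counts in T-ND, 92.2 to 123 in T-D, 92.7 to 111 in PT-ND and 168 to 214 in PT-D. Its difference of effects was 1.46 (SE 0.30, adjusted p = 0.0223 by edgeR), which was lost without PT-ND replicate 2 or 3 or PT-D replicate 3 (1.38 to 1.5).

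The 12 measured genes of chain modification, among them the N-deacetylase/N-sulfotransferases Ndst1 (−0.27 in PT-D vs T-ND) and Ndst2 (−0.05), and the 11 of the linker and of chain polymerisation, among them the polymerases Ext1 (0.17) and Ext2 (−0.47), held no call in PT-D vs T-ND. Of the other core proteins 0 of 8 passed in any of the 6 comparisons. In PT-D vs T-ND 3 of 8 had an unadjusted p under 0.05 in edgeR, beside 5412 of all 22310 genes tested. Sdc4, the syndecan of cell adhesions, was at 2648 ± 496 normalized counts per kb in T-ND (SD, n = 4), above all 10 genes of the main list. Col18a1, a collagen of basement membranes that carries heparan sulfate, averaged 2163 ± 524 normalized counts over the T-ND libraries and 3935 ± 231 over those of PT-D. Its log2 fold change of 0.86 stayed under the limit of 1.

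**Figure D5:**
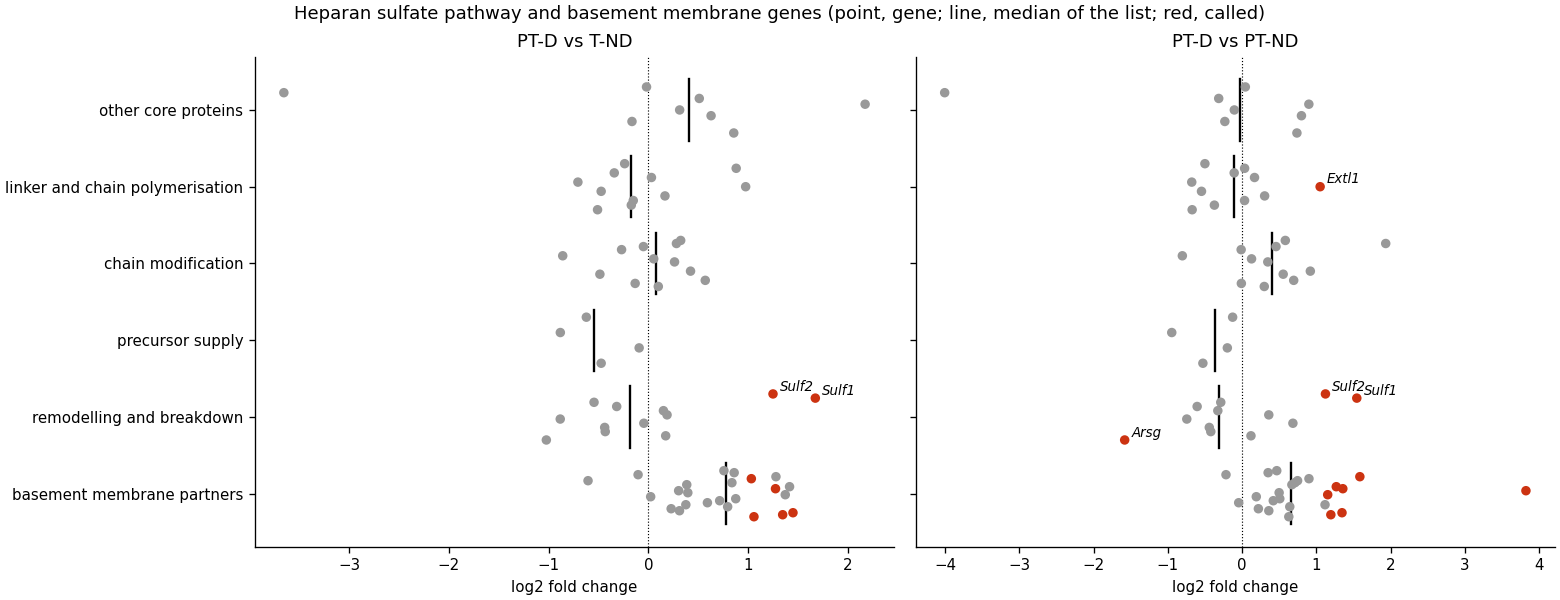
Log2 fold change (x axis) of each gene of the 5 heparan sulfate lists and of the basement membrane partners (y axis) in PT-D vs T-ND and PT-D vs PT-ND, red where called, with a black line at the median of each list. Sulf1 and Sulf2 are red at 1.67 and 1.25 on the left and at 1.54 and 1.12 on the right, and the median of the partners lies at 0.78 and 0.66.

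The basement membrane partners are 24 laminin, collagen and other genes whose proteins assemble with perlecan, agrin and nidogen. In PT-D vs T-ND, where 1.45% of all genes were called, 5 of the 24 rose and none fell, and their median log2 fold change was 0.78. In PT-D vs PT-ND, where 4.95% were called, 7 rose, with a median of 0.66. Col4a1 and Col4a2, the chains of the general collagen IV network, rose by 1.35 (SE 0.23, adjusted p = 0.027) and 1.45 (SE 0.28, adjusted p = 0.0327) in PT-D vs T-ND by edgeR, and by 1.19 and 1.34 in PT-D vs PT-ND. Lama4, a laminin chain of endothelial basement membranes, rose by 1.27 (adjusted p = 0.0232 in edgeR) and 1.36, and Lamc1, the gamma chain of most laminins, by 1.03 (adjusted p = 0.027 in edgeR) in PT-D vs T-ND. Each of these 4 calls against T-ND was lost when T-ND replicate 1 was left out, with log2 fold changes of 0.96 to 1.29, and each was lost without T-ND replicate 2 or 4 or PT-D replicate 2 or 3 as well. Those of Col4a2 and Lamc1 were also lost without PT-D replicate 1. These genes stood beside the same marker sums as Hspg2, Agrn and Nid1, and the part of these was not tested.

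Lama3, a laminin chain of epithelia, differed from the other partners in that it was low in PT-ND. It had 46.9, 43.0 and 32.3 normalized counts there, 295 to 733 in T-ND, 380.5 to 558 in T-D and 474 to 685 in PT-D. By edgeR the log2 fold change was −3.51 in PT-ND vs T-ND (SE 0.36, adjusted p = 0.00649) and 3.82 in PT-D vs PT-ND (SE 0.23, adjusted p = 4.65e-05). The first was lost without PT-ND replicate 2 (−3.55) or 3 (−3.37).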

How the data were processed

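The authors trimmed the reads of poly-A selected, unstranded libraries, aligned them with STAR to GRCm39 (GENCODE M36 by their methods) and deposited raw read counts per gene. The unstranded count was used, and the counts by strand were not. Symbols, lengths and positions are those of GENCODE M39. Of 56980 gene IDs, 56236 matched it without their version.

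Groups and replicate numbers come from the sample titles. Pairs of groups were each fitted without the other libraries by edgeR 4.0.16 (R 4.3.3) with TMM and the quasi-likelihood test, two-sided. Genes needed a total above 10 counts over all libraries, and the Benjamini-Hochberg adjustment was over all genes. The interaction used all 14 libraries. A call needed an adjusted p under 0.05 and a log2 fold change beyond 1. Normalized counts are counts divided by the effective library size and multiplied by its mean. The SE is the log2 fold change divided by the root of F. Depth was 16697246 to 28673176 counts on genes. No libraries of a group agreed within sampling noise. The procedure was tested on simulated data.

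The genes, lists and tests were chosen with earlier results of these data known. Named beyond the 10 genes are each called gene of the heparan sulfate lists, up to 4 called partners per comparison with the smallest adjusted p, the 5 genes most like Vwa1 and Gpc5 (1 of those for Vwa1 is not reported here), and genes that overlap the 10. Ndst1, Ndst2, Ext1, Ext2, Sdc4, Col18a1, Tagln, Ren1, S100a8, Cd3e and Cd79a were named after their values were seen.

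Alternatives were DESeq2 1.42.0, RLE, filterByExpr, no filter, all libraries in a joint fit, the name suffix as covariate, a replicate block, an adjusted p alone and each library left out. Libraries without the suffix alone were chosen as an alternative after seeing the data. Promoter sequences are from RefSeq (GRCm38.p6). The male libraries were not analysed here.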

Additional observations from a re-analysis of the deposited data

Results flagged for a closer look

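Gpc5 in T-ND replicate 1, at 234 normalized counts, stood far from the other 3 libraries of its group, at 32.2 to 53.9. Hs3st3b1 in T-D replicate 2, at 123 normalized counts, stood far from the other T-D libraries, at 92.2 to 94.0. Dixon's test was applied to 42 groups of 4 libraries (the 10 genes and the other named genes in T-ND and T-D), of which these 2 passed its 95% limit. Chance flags about 1 in 20 groups.

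The interaction test of edgeR, of STZ effects in preterm against term mice, passed for 1 of the 10 genes, 3 of 47 heparan sulfate pathway genes and 1 of 24 basement membrane partners, where 4.45% of all genes tested were called. The difference of the log2 fold changes was −2.47 for Vwa1, which is given as a description because the gene was chosen by such results. It was 1.46 for Hs3st3b1 (adjusted p = 0.0223 in edgeR), −1.02 for Slc35b2 (adjusted p = 0.0481 in edgeR), −1.96 for Arsg (adjusted p = 0.0248 in edgeR) and 3.82 for Lama3 (adjusted p = 0.0009 in edgeR).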

How the results depend on the processing

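The direction of the log2 fold change turned in 16 fits, all of genes that were not called. Gpc4 in PT-D vs T-ND (0.04) was −0.045 with the name suffix as covariate, −0.01 without T-ND replicate 2, −0.04 without PT-D replicate 2 and −0.10 without PT-D replicate 3, from −0.10 to 0.24 over the libraries left out. Gpc5 in PT-D vs T-D was 0.088 without PT-D replicate 2 (−0.62 to 0.088). In T-D vs T-ND, Agrn was −0.006 without T-ND replicate 2 and −0.030 without T-D replicate 2 (−0.030 to 0.57), Gpc6 was 0.059 without T-D replicate 4 (−0.50 to 0.059), and among libraries without the suffix Hspg2 and Agrn were both −0.26. In PT-ND vs T-ND, Agrn was 0.034 with the replicate block and 0.21 without T-ND replicate 3 (−0.36 to 0.21), Nid1 −0.21 without PT-ND replicate 1 (−0.21 to 0.47), and Hspg2 −0.12 among libraries without the suffix. Gpc6 in the interaction was 0.023 without T-ND replicate 1 and 0.004 without T-D replicate 3 (−0.52 to 0.023). Over the named genes, 1126 fits kept direction and side of the threshold, 100 lost the call and 19 gained it.

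Counts over all genes (DEGs) were 323 in PT-D vs T-ND, 43 in PT-D vs T-D, 15 in T-D vs T-ND, 1105 in PT-D vs PT-ND, 18 in PT-ND vs T-ND and 993 in the interaction. With DESeq2 they were 964, 661, 293, 1360, 164 and 1648, and it called 5 of the 10 genes in PT-D vs T-ND, 1 in PT-D vs T-D, 1 in T-D vs T-ND and 2 in the interaction, and 2 pathway genes in PT-D vs T-D. Without a filter DEGs numbered 645, 657, 109, 1501, 83 and 1289, with 1 of the 10 genes and 2 pathway genes in PT-D vs T-D and 2 of the 10 in the interaction. In the joint fit there were 396 DEGs in PT-D vs T-D and 58 in T-D vs T-ND, 1 of the 10 genes in PT-D vs T-ND, and 1 of the 10 genes and 1 pathway gene in PT-D vs T-D. By adjusted p alone there were 616 DEGs and 4 pathway genes in PT-D vs T-ND, 2881 and 11 in PT-D vs PT-ND, and 5 pathway genes in the interaction. filterByExpr gave 22 DEGs in PT-D vs T-D and 8 in PT-ND vs T-ND, and the suffix as covariate gave 23, 45 and, in the interaction, 2 of the 10 genes. Among libraries without the suffix, an alternative chosen after seeing the data, DEGs numbered 34, 16, 1, 610, 11 and 10, with 1 of the 10 genes in PT-D vs T-ND, 1 (Gpc5) in PT-ND vs T-ND and 0 in the interaction, and 0, 2 and 0 pathway genes in PT-D vs T-ND, PT-D vs PT-ND and the interaction. That setting has fewer libraries, and otherwise the cause was not tested.

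With the replicate number of the labels as a block, the pairing left 73 DEGs and 0 pathway genes in PT-D vs T-ND, 83 DEGs in PT-D vs T-D, 6 in PT-ND vs T-ND and 563 in the interaction. Deviations of same-numbered libraries correlated between −0.29 and 0.30, with 2 of 19 pairs above 0.1, so that they share only a number.

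With each library left out in turn, DEGs ranged from 27 to 1063 in PT-D vs T-ND, 25 to 107 in PT-D vs T-D, 1 to 282 in T-D vs T-ND, 592 to 1403 in PT-D vs PT-ND, 1 to 95 in PT-ND vs T-ND and 76 to 1246 in the interaction. The highest count of PT-D vs T-ND came without T-ND replicate 3 and the lowest without PT-D replicate 2. In the same order, calls among the 10 genes ranged from 1 to 5, 0 to 1, 0 to 0, 2 to 6, 0 to 1 and 1 to 2, and pathway calls from 0 to 3, 0 to 0, 0 to 1, 2 to 5, 0 to 0 and 0 to 3. Depth limits Gpc6 and the low Gpc5 libraries.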

Other observations

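T-D replicate 4 had the lowest level of all 14 libraries for Gpc4 (2497 normalized counts), Gpc6 (2.57), Hspg2 (248) and Nid1 (299), and the lowest sum of podocyte markers (3574) and of endothelial markers (3219). Its Vwa1, at 1480.2, was the highest of the T-D libraries, and its Sdc1, at 686, the second highest of them.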
